A study of Mus musculus with 6 samples.

Results

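NCU10K is an immortalized line of mouse neural crest cells, grown in DMEM with foetal calf serum. The 3 arrays described here are the cells transfected with control siRNA, out of 6 arrays in the series, the others being the same line transfected with Nedd4 siRNA. RNA was taken 48 h after transfection from 3 separate experiments, labelled as biological replicates, and 300 ng of total RNA from each was prepared for 1 Affymetrix mouse gene array. No array of untransfected cells was analysed here, so what the siRNA and the transfection reagent themselves do to the cells is part of every value. The methods name the control as a low GC siRNA. The reporting summary states that the line was a gift from another laboratory and was neither authenticated nor tested for mycoplasma. It adds that the cells had been found to express Sox10. The methods and the design notes name different culture vessels as the source of the RNA, and this was not reconciled here. The genes were those with a probeset carrying 1 gene symbol, and a gene with several was read from the one whose mean over the 3 arrays was highest. This gave 19933 genes, from 21780 of the 28440 probesets, and the same genes are measured on all 6 arrays. With a single group there was nothing to test between groups, and the values below are levels, counts and the spread between the 3 repeats.

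Neural crest cells leave the dorsal neural tube of the embryo, migrate through the body and give rise to peripheral neurons and glia, melanocytes, and, from the head, to cartilage and bone. A set of transcription factors that includes SOX10, FOXD3, SNAI2 and TFAP2A marks them while they migrate, and receptors for neuregulin, semaphorins, endothelin and GDNF guide their survival and routes. As they settle, each derivative takes up its own genes, such as myelin genes in Schwann cells and pigment enzymes in melanocytes. A cell line can therefore be placed by which of these sets its RNA holds.

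The gene that the other siRNA of the study targets was checked first. Nedd4, which encodes a HECT domain ubiquitin ligase, read 12.24, 12.35 and 12.34 on the 3 control arrays (log2 signal throughout). The same probeset read 10.45, 10.94 and 10.68 on the 3 Nedd4 siRNA arrays, so the groups did not overlap and the control labels were borne out by this gene.

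Signal was read against genes that are silent in most tissues. Olfactory receptor genes, 1027 of them on these arrays, are used by the sensory neurons of the nose, and the 95th percentile of their signal was 6.11, 5.96 and 6.03 on arrays 1, 2 and 3. A gene above this value on all 3 arrays was called above background, which held for 10822 of 19933 genes (54.3%). At background on all 3 arrays were 8247 genes (41.4%), and 864 (4.33%) were above it on 1 or 2 arrays and are called uncertain. The highest mean of any gene in the families expected to be silent was 7.93, of Olfr767, and the 3709 genes above background but no higher than this are called faint (18.6%). Genes with a higher mean, 7113 in all (35.7%), are called moderate (5114 genes) or, in the top 10% of all genes, high (1999 genes, 10.0%, from a mean of 10.13). The ceiling of the faint band was chosen after the values were seen.

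The faint calls were the least secure. Of 44 keratin-associated protein genes, which build hair, 12 were above background, as were 3 of 165 vomeronasal receptor genes, 3 of 50 taste and trace amine receptor genes and 5 of 63 defensin, casein and prolactin family genes. These families set the ceiling of the faint band, so calls above background in them are faint by definition. Sry, the Y-linked testis gene, read 7.93, 7.24 and 7.64, a faint signal. Of the other Y-linked genes, Kdm5d (5.42 ± 0.12), Usp9y (5.17 ± 0.011), Eif2s3y (5.06 ± 0.047), Uty (5.05 ± 0.12) and Zfy1 (5.01 ± 0.070) were at background (mean ± SD, n = 3 arrays, as in all such values below). Xist, the RNA of the inactive X chromosome, was at background as well (4.93 ± 0.11). Zfy2 was faint (6.43 ± 0.27). Signals of different probesets are not calibrated against each other, so a band places a gene against the background of the array and does not rank 1 gene above another, and a value at background does not show that a transcript is absent.

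**Figure D1:**
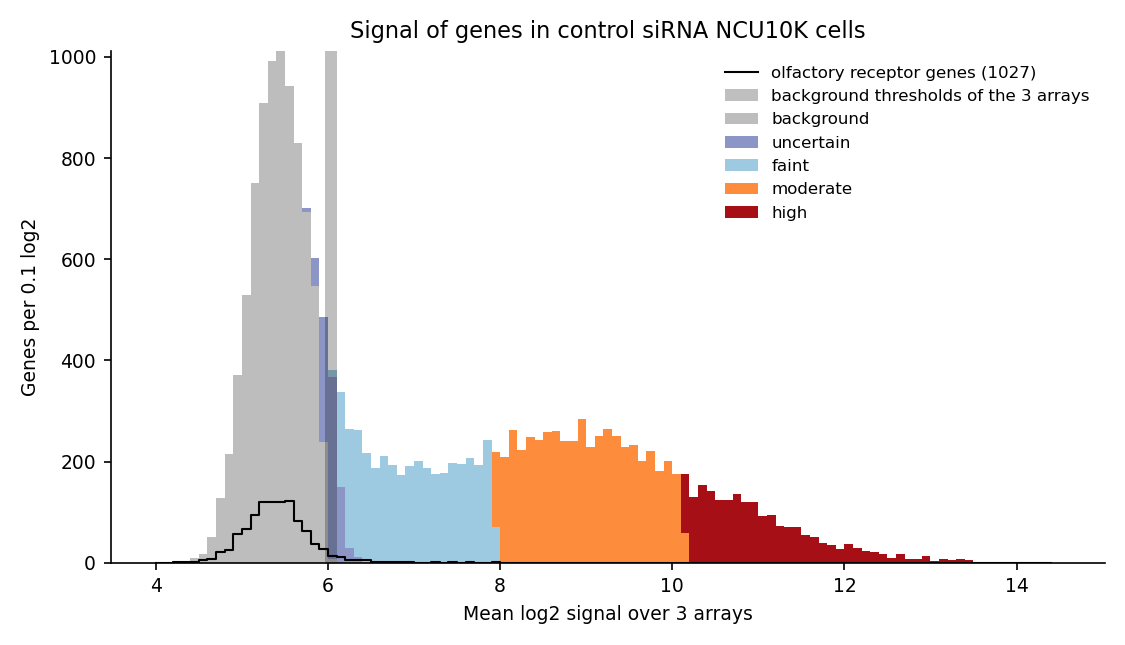
Number of genes (y axis, per 0.1 log2) by mean log2 signal over the 3 control siRNA arrays (x axis), coloured by band, with the 1027 olfactory receptor genes as a black line and the thresholds of the 3 arrays (5.96 to 6.11) as a grey strip. The 8247 genes at background form a peak that lies over the olfactory receptor genes. By definition of the bands, the 7113 moderate and high genes lie to the right of every gene of the silent families.

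Most neural crest transcription factors gave signal. Of 39 measured members of a list of 41, 27 were above background (69.2%, against 54.3% of all genes), 16 were moderate or high (41.0% against 35.7%) and 11 were at background. Sox10, which specifies and maintains the migrating crest and its glia, read 11.08, 11.19 and 10.93, in the high band on every array. Snai2, a repressor of cadherin genes in migrating crest, read 12.23, 12.19 and 12.43, and Dlx2, a homeobox gene of cranial crest, read 10.21, 10.40 and 10.27. Also high were Id2 (11.62 ± 0.11), Zeb2 (10.30 ± 0.14) and Myc (10.26 ± 0.11). The moderate band held Foxd3, a forkhead factor of early crest, at 9.44, 9.57 and 9.59, and Tfap2a, an inducer of crest fate, at 9.41, 9.53 and 9.53. Ets1 (9.27 ± 0.16) and Pax3 (8.07 ± 0.099) were moderate too. In RNA from a whole culture, fewer cells using a gene and less of its RNA per cell cannot be told apart. The 3 repeats of each of these genes lay close together, with SDs between 0.069 and 0.16.

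Other crest factors were faint or at background. Sox9, which drives cartilage and early crest, was faint at 7.02, 6.97 and 7.20. Twist1, a basic helix-loop-helix factor of cranial mesenchyme, read 6.22, 6.34 and 6.09, just above the thresholds. Zic1, a factor of the neural plate border, was at background with 5.75, 5.54 and 5.59. The other members at background were Msx1, Pax7, Hand2, Alx1, Alx4, Tfap2b, Tfap2c, Gata3, Prrx1 and Mycn. Thus the list divided within gene families, with Tfap2a moderate while Tfap2b and Tfap2c were at background, and with Zic1 at background while Zic2 was faint (7.86 ± 0.28).

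The receptors and adhesion molecules by which crest cells are isolated or guided divided in the same way. Of 23 measured markers, 13 were above background (56.5%) and 9 at background (39.1%), close to the 54.3% and 41.4% of all genes, while 7 were high (30.4% beside 10.0%). Ngfr, the p75 neurotrophin receptor used to sort crest cells, read 11.16, 11.22 and 11.20. Erbb3, the neuregulin receptor of crest and Schwann cell precursors, read 10.85, 10.89 and 10.61. The semaphorin co-receptors Nrp1 (11.78 ± 0.032) and Nrp2 (10.38 ± 0.045), the adhesion genes Cdh2 (11.54 ± 0.085) and Ncam1 (10.73 ± 0.15) and the intermediate filament gene Nes (11.08 ± 0.18) were high. Itga4, a fibronectin receptor subunit, was moderate (8.48 ± 0.071) and Pdgfra, of cranial mesenchyme, was faint (6.18 ± 0.087). At background were Ret, the GDNF receptor of enteric crest, at 5.61, 5.43 and 5.48, and Ednrb, the endothelin receptor of enteric and pigment precursors, at 5.32, 4.99 and 5.22. Cxcr4, Gfra3, Robo1, Robo2, Ntrk2, Ntrk3 and Epha4 were also at background.

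Among the derivatives of the crest, the list of Schwann cells and other peripheral glia had 22 of 27 measured genes above background (81.5% beside 54.3% of all genes), 12 of them faint. Moderate or high were 37.0%, close to the 35.7% of all genes, and 6 were high (22.2% beside 10.0%). The adhesion gene Cdh19, of Schwann cell precursors, read 11.98, 11.97 and 12.08, and Fabp7, a fatty acid binding protein of precursor glia, read 10.89, 10.89 and 10.63. Pmp22, which encodes a protein of the myelin membrane that other cells also make, read 12.14, 12.19 and 12.37. Postn (12.98 ± 0.0058), Gjc3 (11.17 ± 0.19) and L1cam (11.06 ± 0.078) were high, and S100b (10.00 ± 0.10), Cnp (9.42 ± 0.22) and Pmp2 (8.65 ± 0.055) moderate. The regulators Egr2 and Pou3f1 and several proteins of myelin were faint or at background, unlike Pmp22, Gjc3, Cnp and Pmp2 of the same list. Mbp, a major myelin protein gene, was faint at 6.44, 6.39 and 6.45, and Egr2, the regulator that turns on myelin genes, was faint at 6.21, 6.17 and 6.31. Pou3f1, which acts before Egr2, was faint (6.89 ± 0.038). At background were Mag (5.03 ± 0.12), Gjb1 (5.71 ± 0.13), Gldn (5.10 ± 0.11) and Gap43 (5.68 ± 0.23), of which the first 3 belong to myelinating Schwann cells.

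Pigment cell and autonomic neuron genes were seldom above background. In the melanocyte list 14 of 16 genes were at background (87.5% beside 41.4% of all genes), and the 1 gene above it was Mitf, the pigment cell regulator, at 8.05, 8.20 and 8.20. Its targets Tyr (5.01 ± 0.056), Dct (5.21 ± 0.067) and Pmel (5.55 ± 0.11) and the receptor gene Kit (5.64 ± 0.19) were at background. Of 20 genes of autonomic and enteric neurons 15 were at background and 4 uncertain. Those at background included the noradrenaline enzymes Th (5.43 ± 0.087) and Dbh (5.32 ± 0.14), and of the list only Gata2 was above it (7.15 ± 0.092). Of 18 sensory neuron genes 6 were above background (33.3% beside 54.3% of all genes) and 3 were moderate or high. These 3 were the runt factor genes Runx1, with 10.65, 10.71 and 10.77, and Runx3, with 9.15, 9.28 and 9.56, and the neurofilament gene Nefm (8.60 ± 0.058). The neurogenic and sensory factors Neurog1 (5.41 ± 0.076) and Pou4f1 (5.77 ± 0.067) and the filament gene Prph (5.44 ± 0.050) were at background, and Isl1 was uncertain (5.90 ± 0.24).

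Skeletal and mesenchymal genes were mixed. Of 22 listed osteoblast and chondrocyte genes 19 were measured, and the bone genes Runx2, Spp1 and Bglap were not. Of the 19, 11 were at background (57.9% beside 41.4% of all genes) and 5 were moderate or high (26.3% beside 35.7%). Acan, the large proteoglycan of cartilage, read 12.53, 12.66 and 12.47. Col10a1, a collagen of hypertrophic cartilage, read 10.84, 10.92 and 10.81. Hapln1, which links aggrecan to hyaluronan, and Col9a1 were moderate (9.98 ± 0.050 and 8.79 ± 0.044). Col2a1, the main cartilage collagen, was faint at 7.15, 6.88 and 6.87, and the bone factor Sp7 was uncertain (6.06 ± 0.15). Of 26 genes of smooth muscle, pericytes and fibroblasts 14 were above background (53.8%, close to the 54.3% of all genes), with Vim (12.91 ± 0.047), S100a4 (12.15 ± 0.072) and Pdgfrb (11.17 ± 0.12) high. Acta2, smooth muscle actin, was moderate (8.60 ± 0.14), while Tagln (5.57 ± 0.078) and Myh11 (5.60 ± 0.10) of the contractile apparatus were at background.

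**Figure D2:**
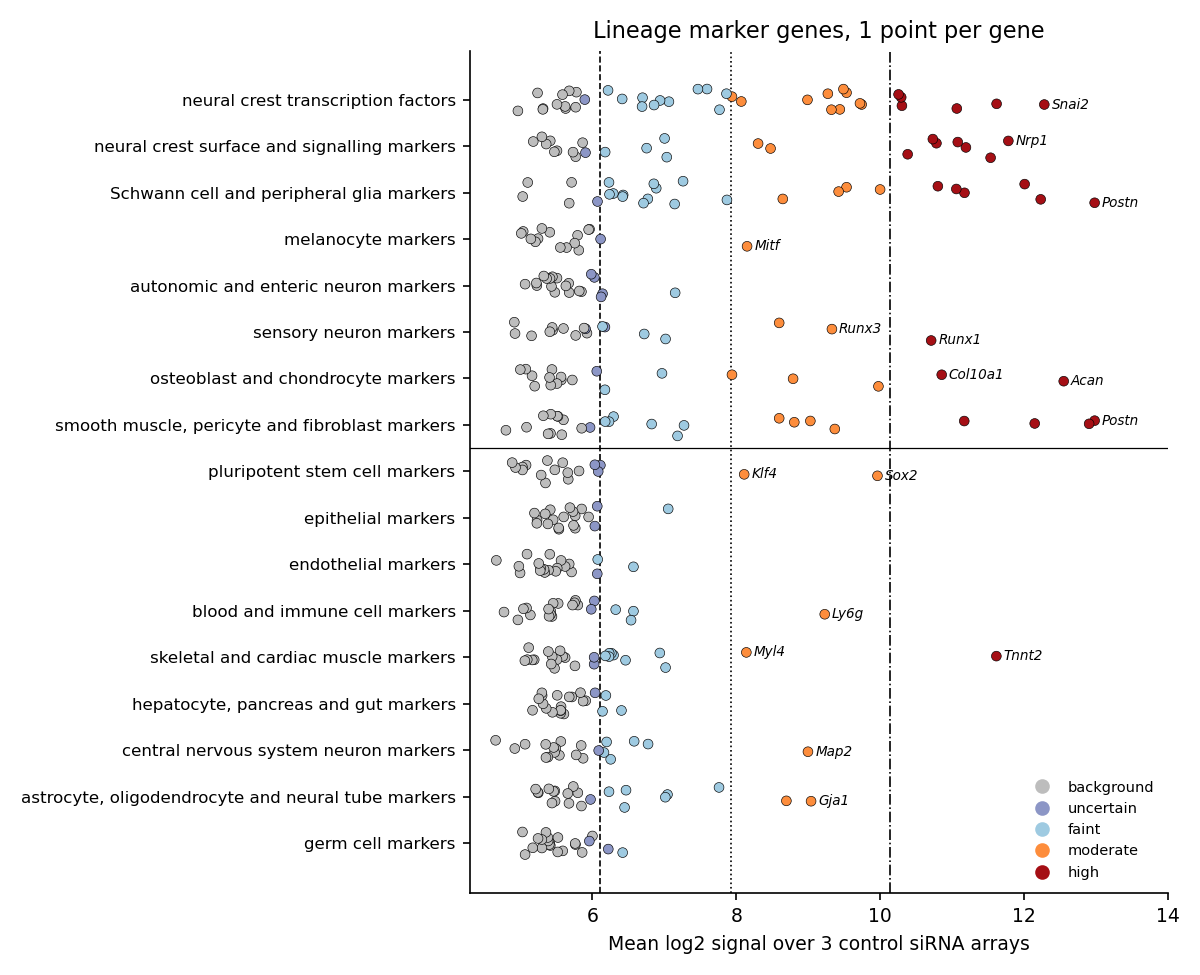
Mean log2 signal over the 3 control siRNA arrays (x axis) of each marker gene, 1 point per gene, by list (rows) and coloured by band, with crest lists above the horizontal line and other lineages below it. Vertical lines mark the highest background threshold (6.11, dashed), the highest gene of the silent families (7.93, dotted) and the lower edge of the top 10% (10.13, dash-dotted), and points are spread vertically only to be seen. Neural crest and glial lists reach the high band with 6 or more genes each, and in the lists of other lineages only Tnnt2 does.

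Markers of cells that do not come from the crest, or that come from it only in part, served as the contrast. Of 193 such genes 141 were at background (73.1% against 41.4% of all genes) and 8 were moderate or high (4.15% against 35.7%). Epithelial genes were at background in 17 of 20, among them Cdh1 (5.85 ± 0.046), Epcam (5.53 ± 0.087) and Esrp1 (5.19 ± 0.091), and the 1 above it was the simple keratin gene Krt8 (7.05 ± 0.17), whose partner Krt18 was at background (5.69 ± 0.17). Endothelial genes were at background in 17 of 20, with Pecam1 at 5.33 ± 0.12, Cdh5 at 5.34 ± 0.27 and Kdr, the VEGF receptor, at 4.98 ± 0.12, while Egfl7 (6.57 ± 0.078) and Lyve1 (6.07 ± 0.076) were faint. For blood cells 16 of 22 were at background, including the leukocyte antigen gene Ptprc (5.52 ± 0.12), the myeloid factor gene Spi1 (5.08 ± 0.011) and the macrophage gene Adgre1 (5.14 ± 0.10). Germ cell genes were at background in 19 of 22, with Ddx4 at 5.52 ± 0.11 and Dazl at 5.52 ± 0.11, and 1 was faint, Hormad1 (6.42 ± 0.23). Hepatocyte, pancreas and gut genes were at background in 18 of 22, with Alb at 5.51 ± 0.066, Pdx1 at 5.30 ± 0.064 and Cdx2 at 5.44 ± 0.17. Of the muscle genes 10 of 26 were above background and 14 at background. For astrocytes, oligodendrocytes and neural tube 8 of 22 were above it and 13 at it, for central nervous system neurons 6 of 21 and 14, and for pluripotent stem cells 2 of 18 and 13.

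The 8 exceptions were single genes of several lists, named here after their values were seen. Sox2, a factor of stem cells, neural progenitors and glial precursors, read 9.93, 10.09 and 9.87, while Pou5f1 (5.03 ± 0.15) and Lin28a (5.66 ± 0.26) of the same pluripotency list were at background and Nanog was uncertain (6.08 ± 0.078). Klf4 of that list read 8.08, 8.28 and 7.97. Tnnt2, cardiac troponin T, read 11.62, 11.61 and 11.62, and Myl4, an atrial and embryonic myosin light chain, read 7.95, 8.16 and 8.31, while Myog (5.44 ± 0.31) was at background, Myod1 uncertain (6.02 ± 0.12) and Acta1 (6.94 ± 0.11) and Nkx2-5 (6.23 ± 0.095) faint. Ly6g, known as a granulocyte antigen, read 9.31, 9.04 and 9.34 while Ptprc was at background. Map2, a microtubule protein of dendrites, read 8.83, 8.97 and 9.19, with Dcx at background (5.35 ± 0.070) and Tubb3 (6.58 ± 0.036), Syn1 (6.77 ± 0.26) and Rbfox3 (6.25 ± 0.15) faint. Gja1, connexin 43, and En1, a midbrain homeobox gene, were moderate (9.04 ± 0.017 and 8.70 ± 0.083), with Pax6 (5.48 ± 0.085) and Olig2 (5.85 ± 0.14) at background and Sox1 faint (7.76 ± 0.12). All 9 measured adipocyte genes were at background or uncertain, with Pparg at 5.69 ± 0.15 and Adipoq at 5.26 ± 0.059. The array does not show which cells in the dish gave these signals.

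Hox genes, which record the position of a cell along the body, were read cluster by cluster. Of 37 measured genes 24 were above background (64.9% beside 54.3% of all genes) and 9 were moderate or high (24.3% beside 35.7%), and 6 of these 9 belong to the Hoxc cluster. Hoxc8 read 10.73, 11.04 and 11.14, Hoxc10 read 10.19, 10.32 and 10.33 and Hoxc13 read 10.15, 10.33 and 10.27, all in the high band. Hoxc6 (9.88 ± 0.17) and Hoxc9 (9.07 ± 0.068) were moderate, and so was Hoxc5, whose repeats differed more (7.60, 7.94 and 8.41, SD 0.41). Between these, Hoxc11 (5.17 ± 0.12) and Hoxc12 (5.18 ± 0.015) were at background. Outside the cluster Hoxb9 (9.50 ± 0.24), Hoxd8 (9.10 ± 0.17) and Hoxd13 (9.23 ± 0.047) were moderate, and no Hoxa gene of the 10 measured was more than faint. The 10 Hox genes at background were Hoxa5, Hoxa9, Hoxa11, Hoxa13, Hoxb1, Hoxc11, Hoxc12, Hoxd1, Hoxd11 and Hoxd12.

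**Figure D3:**
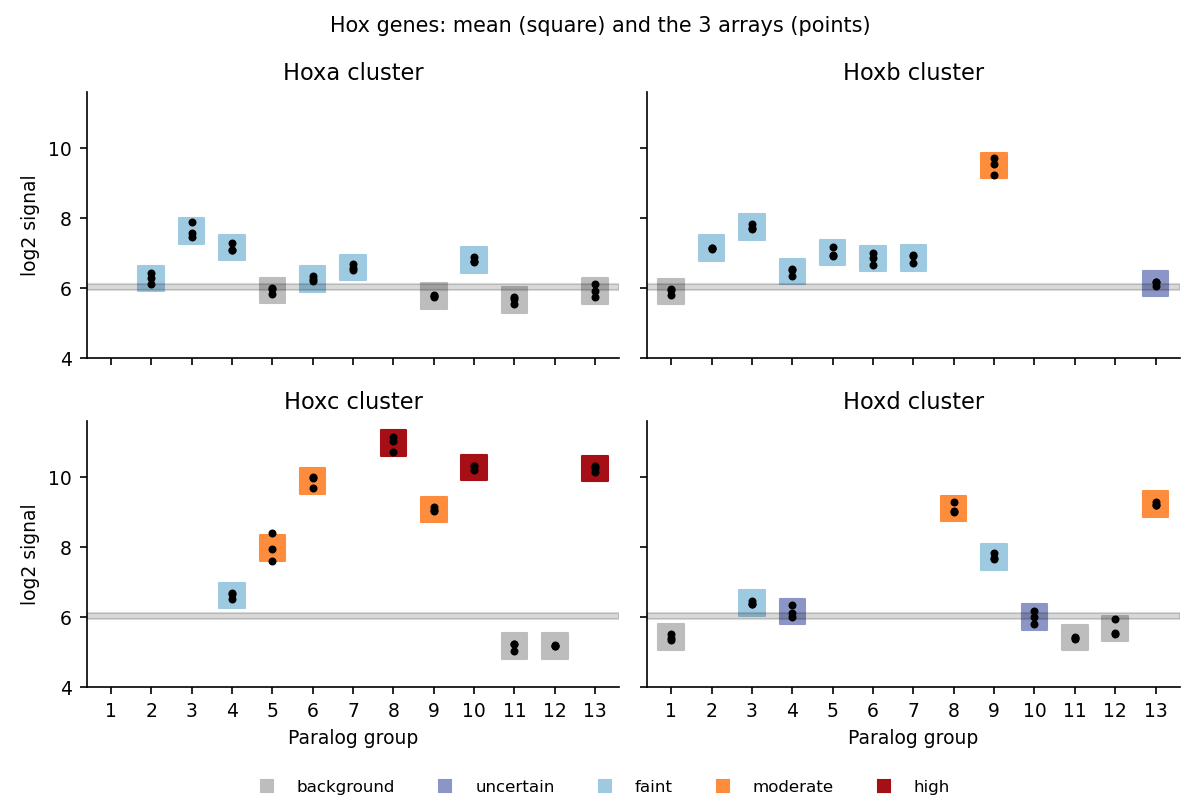
Log2 signal (y axis) of the Hox genes of each cluster (panels) by paralog group (x axis), with the mean as a square coloured by band, the 3 control siRNA arrays as points and the range of the background thresholds as a grey strip. The Hoxc panel holds the 3 high genes, Hoxc8, Hoxc10 and Hoxc13, with Hoxc11 and Hoxc12 at background between them.

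The cells carried the RNA of a dividing population. All 31 measured genes of DNA replication and mitosis were moderate or high (beside 35.7% of all genes), and 17 were high (54.8% beside 10.0%). Mki67, the proliferation antigen gene, read 11.17, 11.24 and 11.39. Pcna, the sliding clamp of DNA polymerase, read 12.36, 12.12 and 12.16, and the cyclin gene Ccna2 read 11.77, 11.76 and 11.76. Mcm2 (10.56 ± 0.21) of the replicative helicase and Top2a (10.66 ± 0.081) were high and Cdk1 was moderate (10.01 ± 0.18). Among 24 genes of the p53, INK4 and RB pathways, 16 were moderate or high (66.7% beside 35.7% of all genes) and 5 were at background. Cdk4 (11.93 ± 0.12), Ccnd1 (11.80 ± 0.025) and Mdm2 (10.72 ± 0.026) were high. Cdkn2b, an inhibitor of CDK4, was moderate (9.19 ± 0.13) and its neighbour Cdkn2a, which encodes p16 and ARF, was faint at 7.23, 7.34 and 7.32. Tert, the catalytic subunit of telomerase, was at background (5.76 ± 0.050), as were Cdkn1c, Mycl, Trp73 and Mycn. How the line was immortalized is not given in the sources used here.

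Of 56 receptor tyrosine kinases 25 were above background (44.6% beside 54.3% of all genes), 29 were at background (51.8% beside 41.4%) and 6 were high (10.7% beside 10.0%). The neuregulin receptor genes differed by member. Erbb3, which binds neuregulin but has a weak kinase, was high as given above, its partner Erbb2 was faint at 7.58, 7.68 and 7.19, and Egfr (5.29 ± 0.14) and Erbb4 (5.43 ± 0.12) were at background. Axl, a receptor for GAS6 and protein S, read 11.61, 11.66 and 11.44, and the platelet-derived growth factor receptor gene Pdgfrb read 11.23, 11.25 and 11.03. Also high were Ryk (10.93 ± 0.098), Igf1r (10.57 ± 0.026) and the collagen receptor gene Ddr1 (10.31 ± 0.20). Insr was moderate (9.30 ± 0.17), Fgfr3 (8.91 ± 0.24) and Fgfr2 (8.13 ± 0.066) were moderate, Fgfr1 was faint (7.17 ± 0.052) and Fgfr4 was at background (5.62 ± 0.20).

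Most receptors of the TGF-beta, Notch, Wnt and Hedgehog pathways were above background. This held for 12 of 17 TGF-beta family receptors (70.6%) and for 20 of 26 receptors of the other 3 pathways (76.9%), beside 54.3% of all genes. Bmpr2, the type II receptor for BMPs, read 11.54, 11.42 and 11.73, and the type I receptor genes Bmpr1a (9.64 ± 0.099), Acvr1 (8.83 ± 0.057) and Tgfbr1 (8.64 ± 0.11) were moderate, as was Tgfbr2 (8.74 ± 0.053). Amhr2, Bmpr1b and Acvr1c were at background. Lgr4, the R-spondin receptor gene, was high (12.04 ± 0.051). The Hedgehog receptor gene Ptch1 and its partner Smo were both high (10.84 ± 0.098 and 10.48 ± 0.090). Notch2 (9.50 ± 0.14), Notch1 (8.80 ± 0.15), Lrp6 (9.84 ± 0.11), Fzd7 (9.39 ± 0.11) and Fzd2 (8.92 ± 0.13) were moderate, and Fzd10, Boc, Lgr5 and Cdon were at background.

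Among 21 receptors for semaphorins, netrins and slits, 11 were moderate or high (52.4% beside 35.7% of all genes), 10 were at background (47.6% beside 41.4%) and none was faint. The plexin genes Plxnb2 (11.59 ± 0.20) and Plxnb3 (10.55 ± 0.10) and the netrin receptor gene Neo1 (10.96 ± 0.0058) were high beside the neuropilins, and Plxna1 was moderate (9.88 ± 0.13), while Robo1 (5.41 ± 0.23), Robo2, Robo3, Robo4, Dcc and Unc5c were at background. Of 26 integrin subunits 14 were above background (53.8%, close to the 54.3% of all genes), 6 of them faint, 2 moderate and 6 high. Itgb1, the partner of most alpha chains, read 12.17, 12.08 and 11.82, and Itga5, with which it binds fibronectin, read 11.61, 11.69 and 11.55. Itgav (10.84 ± 0.055), Itga1 (10.64 ± 0.096), Itga6 (10.42 ± 0.10) and Itgb5 (10.23 ± 0.095) were high too, and the 12 at background included the leukocyte chains Itgal, Itgam, Itgax and Itgb2.

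Nuclear and soluble-factor receptors had few members in the high band, which held 10.0% of all genes. Of 45 nuclear receptors 23 were above background (51.1%, close to the 54.3% of all genes). High was 1 (2.22%), the clock repressor gene Nr1d1 (11.86 ± 0.15). The vitamin D receptor gene Vdr (9.92 ± 0.10), the glucocorticoid receptor gene Nr3c1 (9.09 ± 0.076) and the retinoic acid receptor genes Rarg (9.31 ± 0.19) and Rara (8.48 ± 0.095) were moderate, Nr2f1 was faint (6.70 ± 0.14) and Esr1 was at background (5.72 ± 0.080). Of 43 cytokine receptors 15 were above background (34.9% beside 54.3% of all genes) and 2 were high (4.65%). Il6st, the shared signal chain gp130, read 11.91, 11.93 and 11.79, Ifnar2 was high (10.92 ± 0.16), and Ifngr1 (9.10 ± 0.16), Ifnar1 (9.14 ± 0.078) and Lifr (8.34 ± 0.092) were moderate. Among 31 receptors for endothelin, thrombin, lysophospholipids and chemokines none was high and 4 were moderate. Moderate or high were thus 12.9%, beside 35.7% of all genes. These 4 were Lpar1 (9.25 ± 0.051), Lpar4 (8.99 ± 0.020), S1pr2 (8.73 ± 0.085) and F2r (8.10 ± 0.15).

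Of 161 secreted ligand genes 63 were above background (39.1%), beside 132 of 265 receptor genes (49.8%) and 54.3% of all genes. The high band held 7 of the ligands (4.35%) and 24 of the receptors (9.06%), beside 10.0% of all genes. Of 60 growth factor genes, 22 were above background (36.7%) and 2 were high (3.33%). Pdgfa read 10.90, 10.96 and 11.08 and Fgf5 read 10.36, 10.20 and 10.40. The moderate ones included Hbegf (9.02 ± 0.15), Kitl (8.46 ± 0.097), Vegfa (8.30 ± 0.083) and Gdnf (7.96 ± 0.067). Nrg1, the ligand of ERBB3, was faint (6.65 ± 0.17), as was Igf1 (6.67 ± 0.13), and Edn3 (5.66 ± 0.23) and Fgf2 (5.58 ± 0.060) were at background. Gdnf was thus above background in cells whose Ret signal was at background, and Kitl in cells whose Kit signal was at background.

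Among 37 TGF-beta superfamily ligands and their antagonists 26 were at background (70.3% beside 41.4% of all genes). High were 4 (10.8%, close to the 10.0% of all genes). Tgfb2 read 11.99, 11.95 and 11.98, Tgfb1 read 10.79, 10.89 and 10.69, and Bmp1, a protease named with the family, read 10.27, 10.40 and 10.26. Inhba, the activin A subunit, read 10.01, 10.19 and 10.64, with array 3 apart from the others. The crest inducers Bmp4 (5.64 ± 0.17) and Bmp2 (5.20 ± 0.061) were at background, and the antagonist gene Nog was faint (7.23 ± 0.099). No Wnt gene was more than faint, with 15 of 19 at background (78.9%), including Wnt1 (5.07 ± 0.10) and Wnt3a (5.56 ± 0.064). Wnt4 (6.88 ± 0.038), Wnt9a (6.16 ± 0.087) and Wnt9b (6.45 ± 0.10) were the 3 above background, and Wnt5a was uncertain (6.29 ± 0.16). The Notch ligand gene Jag1 read 10.83, 10.87 and 10.80, while Dll1, Dll3, Dll4, Jag2 and the Hedgehog ligand gene Shh (5.88 ± 0.17) were at background, and Dhh, a Schwann cell signal, was faint (6.42 ± 0.15). Of 35 semaphorins, ephrins, netrins and slits 22 were above background (62.9% beside 54.3% of all genes) and none was high, beside 10.0%. Sema3e (9.25 ± 0.057) and Sema4c (8.75 ± 0.20) were moderate, Sema3a (7.19 ± 0.084), Efnb1 (7.19 ± 0.20) and Efnb2 (7.93 ± 0.064) faint and Slit2 at background (5.13 ± 0.18).

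Ubiquitin system genes stood above background in 295 of 391 (75.4% beside 54.3% of all genes), and 74 were high (18.9% beside 10.0%). In the NEDD4 family, HECT ligases with a C2 domain and WW domains, 7 of 9 members were moderate or high (77.8% beside 35.7% of all genes). Nedd4 itself was high as given above, as were Wwp2, with 11.54, 11.62 and 11.51, and Nedd4l, with 10.51, 10.63 and 10.84. Smurf2 (9.93 ± 0.025), Itch (9.59 ± 0.068), Wwp1 (9.28 ± 0.17) and Smurf1 (8.72 ± 0.10) were moderate. Hecw1 (5.50, 5.10 and 5.28) and Hecw2 (5.75, 5.64 and 5.78), known from neural tissue, were at background. Of the proteins that recruit NEDD4 ligases to membranes, Ndfip1 was high at 11.69, 11.69 and 11.70, Ndfip2 (8.51 ± 0.047) and Arrdc3 (8.07 ± 0.16) were moderate and Arrdc1 was faint (7.44 ± 0.19). Laptm5 and Arrdc5 were the adaptors at background.

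The rest of the pathway differed by family. All 15 other HECT ligases measured were above background (beside 54.3% of all genes), with Huwe1 (11.13 ± 0.074), Trip12 and Ube3c (10.92 ± 0.0058) high. Of 39 E1 and E2 enzymes, which activate and carry ubiquitin, 33 were above background (84.6%) and 18 high (46.2% beside 10.0% of all genes). For 8 of them the chosen probeset is numbered among genes of another chromosome, as described with the brightest genes. Of these, Ube2v1 (11.81) had its other probeset at background (4.96) and Ube2v2 (10.61) had a moderate one (9.20). The others were high by both. Ube2j1, of protein quality control at the endoplasmic reticulum, read 11.69, 11.64 and 11.82 and Ube2r2, a partner of cullin ligases, read 11.86, 11.86 and 11.87. Ube2l3 (12.93 ± 0.026) and Ube2d3 (12.90 ± 0.046) were high. Of 17 cullins and scaffold subunits 16 were above background (94.1%), and Cul9 was at background. Cul3 (11.28 ± 0.12) and Ddb1 (11.51 ± 0.19) were high and Cul1 moderate (9.81 ± 0.053). Proteasome subunits were above background in 35 of 39 (89.7%), and the 2 at background were Psmb8, of the immunoproteasome (5.52 ± 0.076), and Psma8, of the testis (5.17 ± 0.017). Among families of substrate receptors and single ligases, 60 of 77 RNF genes (77.9%), 47 of 70 F-box genes (67.1%) and 31 of 58 TRIM genes were above background. For the TRIM genes this was 53.4%, close to the 54.3% of all genes, with 29.3% moderate or high beside 35.7%. The high ones included Rnf181 (11.56 ± 0.076), Rnf4 (11.40 ± 0.078), Trim13 (10.72 ± 0.30), Trim33 (10.65 ± 0.085), Trim28 (10.26 ± 0.20), Fbxo36 (11.12 ± 0.28) and Fbxo22 (10.37 ± 0.015). Of 53 USP deubiquitinases 39 were above background (73.6%), with Usp39 (11.04 ± 0.12), Usp9x (10.89 ± 0.025) and Usp14 (10.79 ± 0.071) among the 9 high ones.

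**Figure D4:**
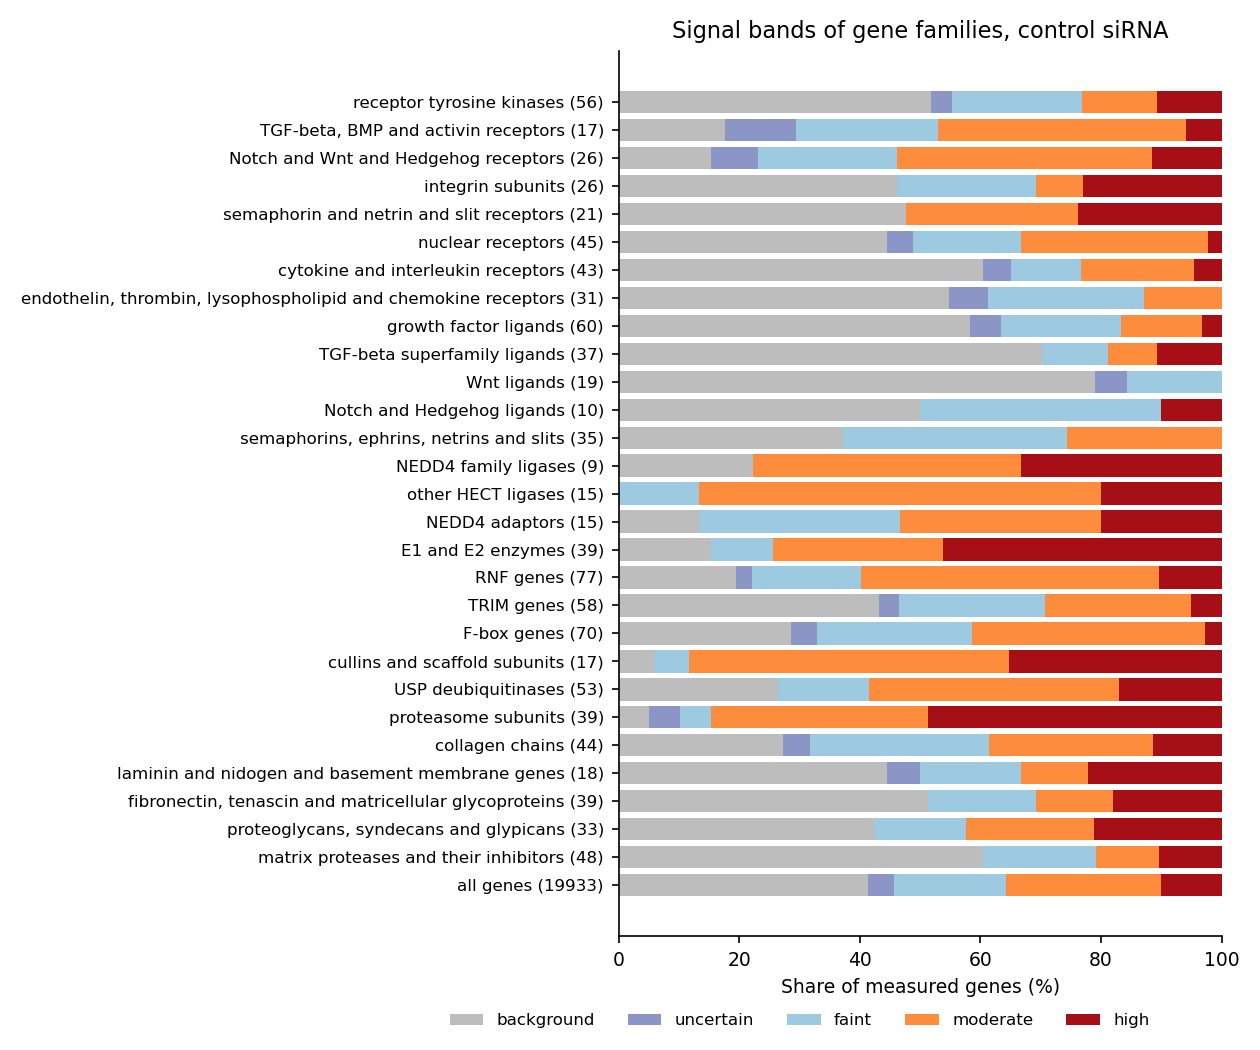
Share of the measured genes of each family (x axis, %) in each signal band, with the number of genes in brackets and all 19933 genes in the lowest bar. The share at background runs from 0.00% in the other HECT ligases to 78.9% in the Wnt ligands, against 41.4% of all genes.

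Of 182 matrix genes 96 were above background (52.7% beside 54.3% of all genes) and 28 were high (15.4% beside 10.0%). Sparc, which encodes a collagen-binding glycoprotein, read 13.35, 13.39 and 13.37, and Thbs1, thrombospondin 1, read 13.32, 13.43 and 13.43. Fn1, fibronectin, read 12.74, 12.80 and 12.73. Postn, Tgfbi (12.71 ± 0.060), Ccn2 (12.21 ± 0.12) and Matn2 (11.01 ± 0.15) were high as well. Tnc, tenascin C, was at background with 5.56, 5.49 and 5.70, and Eln was faint (6.17 ± 0.14).

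Collagen chains were above background in 30 of 44 (68.2% beside 54.3% of all genes), with 38.6% moderate or high and 11.4% high, close to the 35.7% and 10.0% of all genes. All 3 chains of the main collagen VI trimer were high, Col6a1 with 10.87, 10.88 and 10.58, Col6a2 with 10.58, 10.85 and 10.59 and Col6a3 with 11.28, 11.42 and 11.18. Col5a2 was high (10.91 ± 0.011) beside Col10a1. Of the fibrillar collagens, Col3a1 (9.03 ± 0.17), Col1a2 (8.81 ± 0.11) and Col5a1 (8.29 ± 0.22) were moderate, as was the basement membrane chain gene Col4a1 (7.95 ± 0.11), and Col1a1 was faint at 7.42, 7.27 and 7.13. Col1a1 and Col1a2, which assemble into 1 trimer, thus lay in different bands. Of basement membrane genes 9 of 18 were above background, with Lamc1 (10.50 ± 0.12), Agrn (10.62 ± 0.10) and Hspg2 (10.30 ± 0.12) high, Lama4 (9.64 ± 0.12) and Lamb2 (9.30 ± 0.23) moderate, and Lamb1 (5.78 ± 0.11) and Nid1 (5.93 ± 0.078) at background.

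Proteoglycans were above background in 19 of 33 (57.6%, close to the 54.3% of all genes). Besides Acan, the small leucine-rich proteoglycan genes Prelp (12.21 ± 0.065), Fmod (11.95 ± 0.078) and Bgn (10.93 ± 0.21), the syndecan gene Sdc3 (11.88 ± 0.050) and the glypican gene Gpc1 (10.94 ± 0.17) were high. Vcan, versican, which lines crest migration routes, was at background with 5.26, 5.07 and 5.20, Dcn was faint (7.18 ± 0.046), and the hyaluronan receptor gene Cd44 (9.77 ± 0.12) and the syndecan gene Sdc4 (8.87 ± 0.11) were moderate. Of 48 matrix proteases and inhibitors 29 were at background (60.4% beside 41.4% of all genes). Mmp2, gelatinase A, read 12.58, 12.69 and 12.64. Its inhibitor genes Timp2 (12.17 ± 0.15) and Timp3 (12.96 ± 0.032) were high, and Mmp14, which encodes an activator of MMP2, was at background (5.70, 5.31 and 5.45). Timp1 was high with a wide spread (10.26, 10.42 and 9.78, SD 0.33).

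Nearly all genes of basic metabolism were above background, 141 of 145 (97.2% beside 54.3% of all genes). All 49 ribosomal protein genes were above background, 40 of them high, although 23 of 48 rest on probesets numbered among genes of another chromosome, as described with the brightest genes. Also above background were all 8 subunits of the CCT chaperonin and all 11 measured genes of actin, tubulin and glycolysis. Actb read 13.78, 13.88 and 13.86 and the profilin gene Pfn1 read 12.70, 12.87 and 13.02. Of 77 subunits of the respiratory chain and ATP synthase 73 were above background, and the 3 at background were Cox7b2, Cox6b2 and Cox8b, forms known from testis or muscle. All 17 sterol synthesis genes were above background (beside 54.3% of all genes). Nsdhl (10.93 ± 0.020), Insig1 (10.23 ± 0.20) and Fdft1 (10.18 ± 0.10) were high (17.6% beside 10.0%).

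Genes that respond to handling, stress or interferon were read as well. Of 19 immediate early genes 17 were above background (89.5% beside 54.3% of all genes), with Dusp1 (10.85 ± 0.097) and Jun (10.83 ± 0.19) high beside Myc, Atf3 moderate (8.68 ± 0.16), and Fos (6.82 ± 0.16) and Egr1 (7.05 ± 0.080) faint. Of 21 genes of hypoxia and the unfolded protein response 18 were above background (85.7% beside 54.3% of all genes). Asns (12.25 ± 0.056), Hspa5 (11.89 ± 0.051) and Slc2a1 (11.36 ± 0.13) were high, Ndrg1 was moderate (9.21 ± 0.035) and Ddit3 was faint (6.87 ± 0.14). Of 22 interferon-stimulated genes 11 were above background and 11 at background, beside 54.3% and 41.4% of all genes. Ifit3 read 11.45, 11.26 and 11.35 in the high band, while Ifit1 (5.96 ± 0.087), Irf7 (5.70 ± 0.19), Mx1 (5.30 ± 0.11), Rsad2 (5.31 ± 0.095) and Oas2 (5.60 ± 0.15) were at background.

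The brightest genes need a caution about their probesets. The 20 genes with the highest mean were COX2, Baiap2l1, Actb, Sumo2, Rps6, Plp2, Taf1d, Hspa8, Canx, Rpl41, ND3, Thbs1, Rpl21, Sparc, Rpl28, Anxa5, Rn7sk, Rpl10, Pabpc1 and Eif4a1, with means from 14.21 down to 13.28 and SDs of at most 0.14. COX2 and ND3 are mitochondrial genes. On this array probesets are numbered mostly in the order of the genome, so the 10 named genes on either side of a probeset nearly always share its chromosome. For 281 of 19653 genes (1.43%) the chosen probeset stood among genes of another chromosome. This held for 10 of 19 of the brightest genes, for 23 of 48 ribosomal protein genes, for 8 of 39 E1 and E2 enzymes, and for 0.110% of genes at background. The highest-probeset rule takes the brighter of a gene's probesets, and 261 of these 281 genes had another probeset, whose mean was lower by a median of 0.68. Baiap2l1, at 14.07 ± 0.061, had a second probeset at 10.14. What such probesets hybridise to was not tested. Besides the brightest genes, those named here with their own value on such probesets were Ube2l3, Ube2d3, Ube2v1 and Ube2v2. Every other gene named with its value has a probeset numbered among genes of its own chromosome or in no clear run.

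Genes with several probesets show how far a band rests on the probeset. There were 996 such genes, with a median range of 0.715 between the means of their probesets and a range over 2 in 193 of them. In 642 every probeset was above background and in 154 every probeset was at background. In 128 at least 1 was above and 1 at background.

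The repeats lay close to each other. The median SD over the 3 arrays was 0.118 over all genes and 0.125 over the 10822 genes above background, which is a 1.09-fold difference on the linear scale. Of the latter, 373 (3.45%) had an SD over 0.3 and 17 an SD over 0.5. Across genes, which are not independent replicates, Pearson's r between arrays was 0.994 to 0.996 over all genes and 0.989 to 0.994 over those above background. The median SD was 0.150 for genes with a mean from 7 to 8 and fell to 0.0740 for those from 13 upwards. No gene above background in the crest, glial, derivative or other lineage lists had an SD over 0.3.

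Array 3 held the most genes that stood apart by over 0.5. Among genes above background, 158 were higher on it by over 0.5 than the mean of the other arrays and 103 were lower, against 22 and 85 on array 1 and 48 and 10 on array 2. Of the 373 genes with an SD over 0.3, 203 were highest on array 3 and 200 were lowest on array 1. Of the 158 genes higher on array 3, 20.9% were not protein-coding, against 4.10% of all genes above background. Of the 103 lower ones 5.83% were not. This excess was not particular to array 3. On array 1 the share was 31.8% of the 22 higher genes and 23.5% of the 85 lower ones. On array 2 it was 10.4% of the 48 higher genes, and only 5 of the 10 lower ones were protein-coding. In the median difference from the other arrays, by contrast, array 2 was farthest (0.085, against -0.065 for array 1 and -0.020 for array 3). The array medians were 6.35, 6.31 and 6.35 and the interquartile ranges 3.06, 3.33 and 3.18. Whether the RNA, the labelling or the culture differed on array 3 was not tested.

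The 20 genes above background with the largest SD were led by Olfr767, which read 8.89, 7.55 and 7.36 with array 1 above the others, and Prp2, which read 8.09, 6.45 and 7.14. Noncoding RNAs were frequent among them. The small Cajal body RNA gene Scarna13 read 9.35, 9.89 and 10.64, and the long noncoding RNAs Phxr4 (9.10, 9.27 and 10.29), Mir100hg (7.42, 7.95 and 8.54) and Lncpint (7.64, 8.14 and 8.74) were likewise lowest on array 1 and highest on array 3. Protein-coding genes with this pattern were Trps1, a GATA type factor, with 9.36, 9.49 and 10.37, Tk1, thymidine kinase, with 8.69, 9.18 and 9.77, and Mier1, with 8.78, 9.01 and 9.70. Dcun1d5 (9.39, 9.36 and 10.29) and the deacetylase gene Hdac4 (8.41, 8.23 and 9.13) were also highest on array 3. Uqcc2, an assembly factor of complex III, and Get3, a targeting factor for tail-anchored proteins, were lowest there (10.09, 10.36 and 9.20 and 10.95, 10.89 and 10.05). Rpl14 varied between all 3 arrays (7.39, 8.53 and 8.04). The others were Mir505, Platr25, Gm10589, 1110006O24Rik, 1700054O19Rik and AY036118. Of the 20, 15 were highest on array 3 and 14 lowest on array 1.

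**Figure D5:**
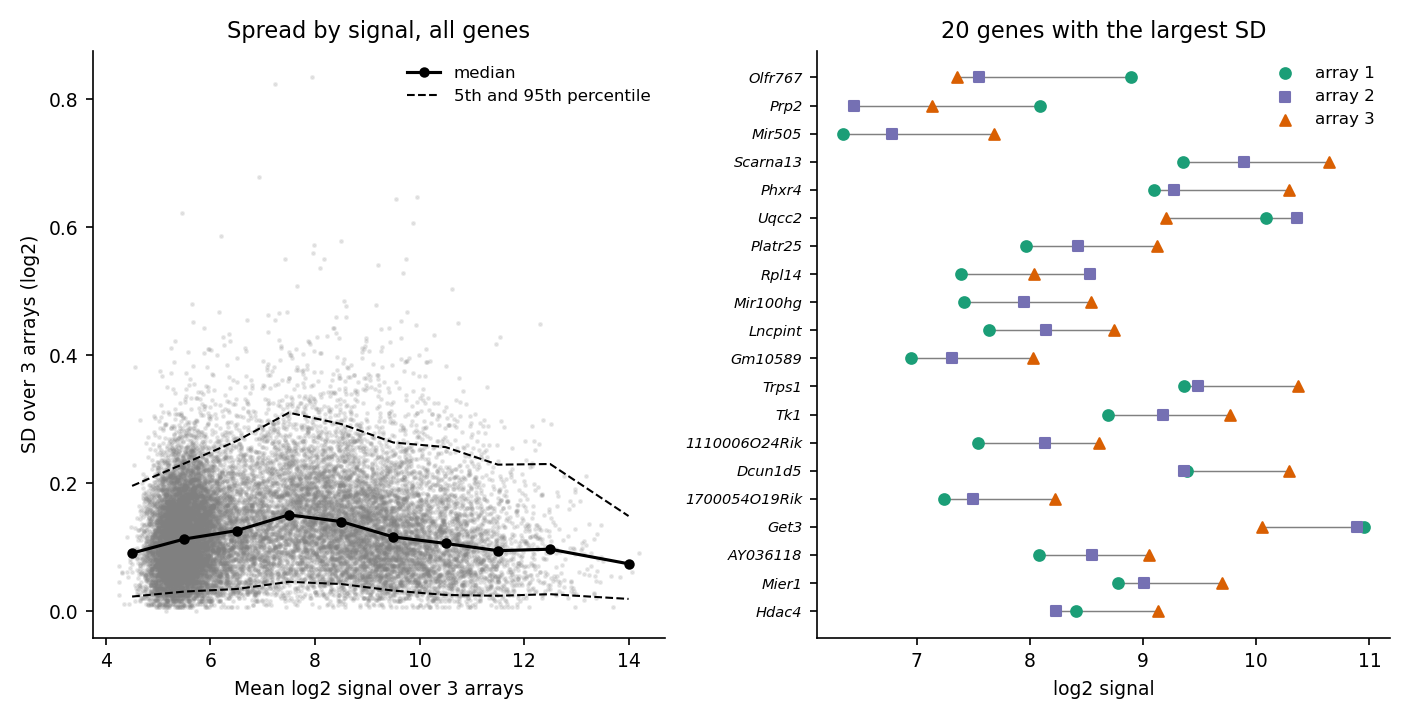
Left, SD over the 3 control siRNA arrays (y axis, log2) against mean log2 signal (x axis) for all 19933 genes, with the median and the 5th and 95th percentiles per level. Right, log2 signal (x axis) on each of the 3 arrays of the 20 genes above background with the largest SD (rows). The median SD is largest, at 0.150, between 7 and 8, and the triangles of array 3 lie at the right end for 15 of the 20 genes.

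MicroRNA genes were mostly not above background, and those above it varied between repeats. A microRNA is cut from a hairpin precursor and pairs with target mRNAs through bases 2 to 8, its seed. Probesets here match the hairpin gene, so the values speak of precursors or host transcripts and not of mature microRNAs. Of 297 microRNA genes 79 were above background (26.6%), 10 of them moderate or high, against 55.9% of protein-coding genes. Their median SD was 0.186, against 0.125 for protein-coding genes above background, and 21.5% of them had an SD over 0.3 against 3.07%. Small nucleolar RNA genes were above background in 46 of 53, with a median SD of 0.178, and long noncoding RNA genes in 194 of 673, with a median SD of 0.129.

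Mature sequences of the miR-181 family and of the miR-23a, miR-27a, miR-24 and miR-7a genes are shown from RefSeq with the seed in capitals, since they let genes of 1 seed be set against genes of 1 transcript with different seeds. They are a subset chosen after the values were seen, and others above background are not shown. Among those left out are the highest microRNA genes, Mir568 (10.66 ± 0.30, the only high one) and Mir692-1 (10.07 ± 0.33, moderate). Faint ones left out include Mirlet7d (7.52 ± 0.40), Mir92b (7.19 ± 0.33) and Mir15a (6.78 ± 0.30).
miR-181a-5p: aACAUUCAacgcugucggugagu
miR-181b-5p: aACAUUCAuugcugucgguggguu
miR-181d-5p: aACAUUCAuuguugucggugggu
miR-23a-3p: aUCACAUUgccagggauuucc
miR-27a-3p: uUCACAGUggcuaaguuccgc
miR-24-3p: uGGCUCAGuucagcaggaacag
miR-7a-5p: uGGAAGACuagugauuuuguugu

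The miR-181 sequences share 1 seed. Mir181b-1 read 7.95, 8.25 and 8.82, Mir181b-2 read 8.13, 8.39 and 8.85 and Mir181a-2 read 7.19, 7.30 and 7.82. All 3 were highest on array 3 and lowest on array 1, like the noncoding genes above. Mir181d was highest on array 1 (7.20, 6.76 and 6.78), and Mir181a-1, from which the same mature miR-181a-5p can be cut, was at background (5.78 ± 0.25). Mir23a (7.80 ± 0.14), Mir27a (7.70 ± 0.20) and Mir24-2 (7.10 ± 0.13), which lie together in 1 precursor transcript and carry 3 different seeds, were all faint. Mir7-1, within the transcript of Hnrnpk, was moderate (8.80, 8.84 and 8.96), while Mir7-2, a second source of miR-7a-5p, was faint (6.24 ± 0.025). Of 297 microRNA genes 271 had an entry in the sequence table used.

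Promoter sequence was set beside the bands. CpG dinucleotides cluster at the promoters of broadly used and developmental genes, whereas promoters of many tissue-specific genes are poor in them. The letters CG, which read the same on both strands, were counted in windows from 250 bases before to 50 after each annotated start in GRCm38.p6 from RefSeq, averaged over the windows of a gene. At least 1 CG was found in 94.6% of the 32851 windows. Of 18554 protein-coding genes 15004 had a window (80.9%), with 82.3% of those above background and 79.0% of those at background. Genes above background held a median of 21 CpGs and genes at background 5. Above background were 451 of 3480 genes with under 5 CpGs, 33.5% of 2001 with 5 to under 10, 69.5% of 3659 with 10 to under 20, 82.2% of 3565 with 20 to under 30, and 84.7% of 2299 with 30 or more, against 56.9% of all genes with a window. The share rose at each step, and genes are not independent replicates, so this is a description of these cells. Olfactory receptor genes set the background threshold, so 956 of the 1027 were at background largely by that choice. They and the other silent families were not left out of these counts. How far they shape the low-CpG steps and the median at background was not tested.

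Marker genes went with and against this pattern. The 250 bases before the start of 4 of them, chosen after their values were seen, are shown 5′ to 3′ on the strand of the gene with each CG in capitals. Foxd3 (chr4:99656049-99656298, plus strand, 21 CpGs shown) was moderate and Fabp7 (chr10:57784673-57784922, plus strand, 4 CpGs) was high, while Zic1 (chr9:91365769-91366018, minus strand, 27 CpGs) and Tyr (chr7:87493513-87493762, minus strand, 0 CpGs) were at background.
Foxd3: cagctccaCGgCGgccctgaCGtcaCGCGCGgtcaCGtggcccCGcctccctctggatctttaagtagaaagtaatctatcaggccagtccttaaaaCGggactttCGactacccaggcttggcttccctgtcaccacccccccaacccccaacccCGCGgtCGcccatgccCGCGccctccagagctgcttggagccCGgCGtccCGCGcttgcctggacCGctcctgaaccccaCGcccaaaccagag
Fabp7: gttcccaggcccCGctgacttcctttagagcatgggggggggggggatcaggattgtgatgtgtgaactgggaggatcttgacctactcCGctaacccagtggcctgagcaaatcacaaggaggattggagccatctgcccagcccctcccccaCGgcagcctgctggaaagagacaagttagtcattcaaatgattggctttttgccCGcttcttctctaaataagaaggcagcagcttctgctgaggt
Zic1: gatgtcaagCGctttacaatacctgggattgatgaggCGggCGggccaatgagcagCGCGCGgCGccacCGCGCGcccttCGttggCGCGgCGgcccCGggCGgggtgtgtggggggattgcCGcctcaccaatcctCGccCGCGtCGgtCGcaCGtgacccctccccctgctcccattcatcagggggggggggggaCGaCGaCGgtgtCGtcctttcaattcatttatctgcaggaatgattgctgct
Tyr: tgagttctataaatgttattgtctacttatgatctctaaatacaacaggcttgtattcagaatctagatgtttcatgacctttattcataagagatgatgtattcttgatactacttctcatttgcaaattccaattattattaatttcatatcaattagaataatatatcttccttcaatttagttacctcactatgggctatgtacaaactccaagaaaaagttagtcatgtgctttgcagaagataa

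Foxd3 and Tyr lay on the side to which most genes of their CpG content fell. Fabp7, among the genes with few CpGs, was above background on all 3 arrays (10.89, 10.89 and 10.63), and Zic1, with the most CpGs of the 4, was at background on all 3 (5.75, 5.54 and 5.59).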

How the data were processed

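Total RNA was hybridised to Affymetrix Mouse Gene 1.0 ST arrays. The deposited values are log2 expression per probeset. The authors made them from the scans in Partek Genomics Suite, where RMA corrected the background, probes were adjusted for GC content, and the probes of a probeset were averaged. The submitters' processing notes give Partek 6.5. They are given to 2 decimals and were used without further normalization. Arrays give no read depth, and their number, 3, limits the precision. Symbols came from the platform annotation, in which 1618 probesets had several and 5042 had none, and 19851 of 19933 genes matched RefSeq (GRCm38.p6) by gene ID.

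Background, bands and SDs were computed in Python 3.11.15 with NumPy 2.4.6 and pandas 2.3.3, and the steps were tested on simulated data. All 64 gene lists, and the genes studied, were chosen with earlier results of these data known, and 3 family patterns were corrected after the values were seen. Lists overlap, and some listed genes were not measured or are not reported here. Named genes were mainly the set key members of each list, its up to 6 highest genes, small sets above or at background, the 20 highest genes and the 20 of largest SD. Not every such gene is printed, and others were named after their values were seen. Alternatives were the background percentile and reference family, the limit of the high band, the treatment of several probesets, quantile normalization, median centring, leaving out each array, and, added after the values were seen, leaving out probesets numbered among another chromosome's genes. No p-value was computed.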

Additional observations from a re-analysis of the deposited data

Results flagged for a closer look

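Probesets without a gene symbol, which entered none of the counts above, also carried signal. Of 5042 such probesets 2167 (43.0%) were above background on all 3 control siRNA arrays, and 790 had a mean above that of Olfr767, the highest gene of the silent families. Of 1618 probesets with several symbols 878 (54.3%) were above background and 645 lay above that gene. What these probesets measure was not tested. No group had the 4 samples needed to look for a single outlying array.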

How the results depend on the processing

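Each of 12 results was recomputed under up to 12 of 15 alternative settings, and 125 of 135 values stayed within 1.5 times the count or, for the median SD, within 0.0108 (its jackknife SD). Genes above background numbered from 9461 with the 99th percentile of olfactory receptor genes to 11527 with the 90th, against 10822. At the 99th percentile the markers of other lineages above background were 15 in place of 37. The other lists fell as well, though within the limit. Ligands were 42 in place of 63, glial markers 17 in place of 22 and matrix genes 76 in place of 96. Receptors were 111 in place of 132, crest transcription factors 23 in place of 27 and ubiquitin system genes 275 in place of 295. The median SD of genes above background, 0.125, was 0.1096 after quantile normalization. It was 0.0919 to 0.1131 when each array was left out, lowest without array 3. An SD over fewer arrays has a lower median whichever array is dropped, so these values cannot be set against 0.125. With the high band set to the top 5% it held 13 receptors (24 at the top 10%) and 48 ubiquitin system genes (74), and with the top 25% 60 receptors, 178 ubiquitin system genes and 47 matrix genes (28). Without probesets numbered among another chromosome's genes 10791 genes were above background, and 71 ubiquitin system genes were high in place of 74. No paired analysis was possible because a single group of 3 arrays was described and no test was made. Genes near the thresholds, and the faint band as a whole, are the least certain calls. A value at background bounds the signal and not the amount of RNA, because probesets are not calibrated against each other.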
